A study of Caenorhabditis elegans with 2 samples.

Results

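Chromatin immunoprecipitation followed by sequencing (ChIP-seq) of a tagged nuclear hormone receptor, NHR-90, left 384 reproducible peaks at nuclear tRNA genes of Caenorhabditis elegans, out of 1441 reproducible peaks in all. A peak was counted here when its summit, the deposited point of highest signal, lay within 100 bp of the body of a gene annotated as tRNA on chromosomes I to V or X, and such a peak is called a member peak. Reproducible peaks are those in the deposited list filtered by irreproducible discovery rate (IDR), a measure that compares how the replicates rank their peaks. The remaining 1038 nuclear IDR peaks had no tRNA gene within that distance, and 19 IDR peaks were mitochondrial. Not every peak of the IDR list had a summit at its place in both replicate lists: 369 of the 384 and 959 of the 1038 did. All animals were whole hermaphrodite young adults of strain OP484, collected 64 h after synchronization as starved L1 larvae. They stably carried NHR-90 with a C-terminal GFP-FLAG tag, from a transgene whose promoter and copy number the sources used here do not give. The sample descriptions name an antibody against GFP, whereas the antibody field names nhr-90. Both biological replicates, numbered 1 and 2 in the labels, belong to 1 group, so no treatment or genotype was compared, and the control experiment that the labels name was not analysed here. Signal at tRNA genes in the absence of the tagged protein is therefore not known from these values. Whole animals were used, so the tissue that gave a peak cannot be told apart.

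Transfer RNAs carry amino acids to the ribosome and read the codon through their anticodon. Their genes are transcribed by RNA polymerase III from a promoter that lies inside the gene: the A box near the 5′ end and the B box further downstream, both bound by the factor TFIIIC, which recruits TFIIIB to the DNA just upstream of the start. Transcription ends at a run of T downstream of the gene. In C. elegans tRNA genes are numerous, many are exact copies of each other, a large part lies on the X chromosome and many lie in introns of protein-coding genes. NHR-90 belongs to the nuclear hormone receptor family, transcription factors that are expanded in nematodes.

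The genes printed here, read from the WBcel235 genome (ce11), are those on which the results turn: the strongest site, a gene of each intron-containing group, and exact copies that differed in their peaks. Each is given 5′ to 3′ on its own strand, introns included. Capitals mark the first match to the A box core TNGNNNAG and to the B box core GTTCNANNC, and N stands for any base.
T23F1.t1 (Lys-UUU, chrV:15465086-15465158, plus strand, peak signal 460.5): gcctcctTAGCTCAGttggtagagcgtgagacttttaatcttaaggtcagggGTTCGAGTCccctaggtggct
T23F1.t2 (Pro-UGG, chrV:15465225-15465296, minus strand, peak signal 460.5) and R11G10.t1 (chrV:13509693-13509764, plus strand, no summit in any list): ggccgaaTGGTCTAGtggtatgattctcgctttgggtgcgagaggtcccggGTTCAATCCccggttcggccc
C53C7.t1 (Ser-AGA, chrX:13046578-13046659, plus strand, peak signal 277.9) and F42A10.t1 (chrIII:6158778-6158859, plus strand, no summit in any list): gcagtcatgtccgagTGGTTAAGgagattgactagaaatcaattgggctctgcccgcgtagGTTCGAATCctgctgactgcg
Y65A5A.t4 (His-GUG, chrIV:16400896-16400967, plus strand, peak signal 260.2) and F28H6.t3 (chrX:14135874-14135945, plus strand, no summit in any list): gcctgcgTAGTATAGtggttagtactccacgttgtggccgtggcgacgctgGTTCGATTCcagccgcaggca
H08J11.t3 (Gln-UUG, chrX:9091557-9091628, minus strand, peak signal 232.1) and H08J11.t4 (chrX:9091097-9091168, minus strand, no summit in any list): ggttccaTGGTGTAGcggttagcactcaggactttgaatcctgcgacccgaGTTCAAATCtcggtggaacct
C04A11.t1 (Leu-CAA with an intron of 35 bp, chrX:13665555-13665673, plus strand, peak signal 331.5): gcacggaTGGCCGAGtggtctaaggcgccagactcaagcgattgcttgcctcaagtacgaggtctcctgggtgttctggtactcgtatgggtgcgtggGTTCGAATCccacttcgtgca
F57F5.t1 (Ile-UAU with an intron of 11 bp, chrV:12002176-12002260, plus strand, peak signal 321.0): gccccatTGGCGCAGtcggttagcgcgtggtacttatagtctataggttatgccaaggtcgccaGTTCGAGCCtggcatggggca
C02B4.t2 (Tyr-GUA with an intron of 11 bp, chrX:12665228-12665311, plus strand, peak signal 311.9): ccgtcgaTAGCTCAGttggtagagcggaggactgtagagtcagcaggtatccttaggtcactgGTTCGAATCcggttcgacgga

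Most tRNA genes had a reproducible peak, and most of those without one had a weaker summit somewhere. Of 612 nuclear tRNA genes, 399 (65.2%, exact Clopper-Pearson interval 61.3 to 69.0%) had a member peak, and 18 of the 384 peaks had 2 tRNA genes within reach. Such intervals cover the counting of genes only, and the numbers of reads are unknown here. Among as many of the strongest nuclear peaks of a single replicate list, 1422, the share was 62.4% in replicate 1 and 63.6% in replicate 2. A further 86 genes had a summit in the list called from both replicates together, the pooled list, with a signal between 15.3 and 97.5 and a median of 69.1. No pooled summit lay at the other 127 genes, of which 58 had a summit in a replicate list and 69 (11.3%) had none in any list. The lower part of the pooled list was deposited as peaks and background, so these weaker summits are not taken as binding.

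Annotated remnants of tRNA genes gave a different picture. RefSeq lists 209 nuclear tRNA pseudogenes, none of them within 200 bp of a tRNA gene, and 8 of these carried an IDR summit within 100 bp (3.83%, exact interval 1.67 to 7.40%). The count was also 8 in the strongest peaks of each replicate. In the pooled list 485 tRNA genes (79.3%) had a summit, against 36 pseudogenes (17.2%). Of other annotated genes as short as tRNA genes, from 64 to 122 bp, 92 of 2322 had an IDR summit (3.96%). Of the pooled nuclear peaks as a whole, 4.74% were in the IDR list. The pseudogenes with the highest signals were D1046.t1 (344.0, with 201.7 in replicate 1 and 141.5 in replicate 2), F19H8.t1 (330.0) and T08B2.t1 (326.3). At all 3 of these the summit also lay within 100 bp of a snoRNA gene. At the remaining 5, whose signals ran from 122.4 to 239.7, no gene of the noncoding RNA classes searched lay that close. These classes were snoRNA, snRNA, miRNA, rRNA, ncRNA, lincRNA and antisense RNA, and no other class was searched. The pseudogenes were compared after the values of the tRNA genes had been seen.

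Peaks at tRNA genes had a higher median signal than the other reproducible peaks, but they were not the strongest of all. Their pooled signal, the authors' value for each peak, had a median of 171.4 (quartiles 137.0 and 211.7, range 99.4 to 460.5), against 131.2 for the other nuclear IDR peaks (quartiles 111.5 and 171.8, range 98.9 to 855.8). In replicate 1 the medians were 101.0 at tRNA genes and 78.7 elsewhere, and in replicate 2 they were 74.0 and 57.8. The upper and lower quartiles of both sets overlap in every list. Only 1 of the 20 strongest nuclear IDR peaks lay at a tRNA gene, but 24 of the first 100, 71 of the first 200 and 212 of the first 500 did, against 27.0% of all 1422. The ranks of the 2 replicates followed each other with a Spearman rho of 0.714 over 369 member peaks found in both lists, and of 0.474 over 959 other peaks. These points share their 2 libraries and the selection by IDR, and the rho is a description. Of the 369, 318 had the higher value in replicate 1, with a median ratio of replicate 1 to replicate 2 of 1.35 (1.39 at the other peaks). Signal scales were not matched between the lists, so a common ratio is no difference between replicates.

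**Figure D1:**
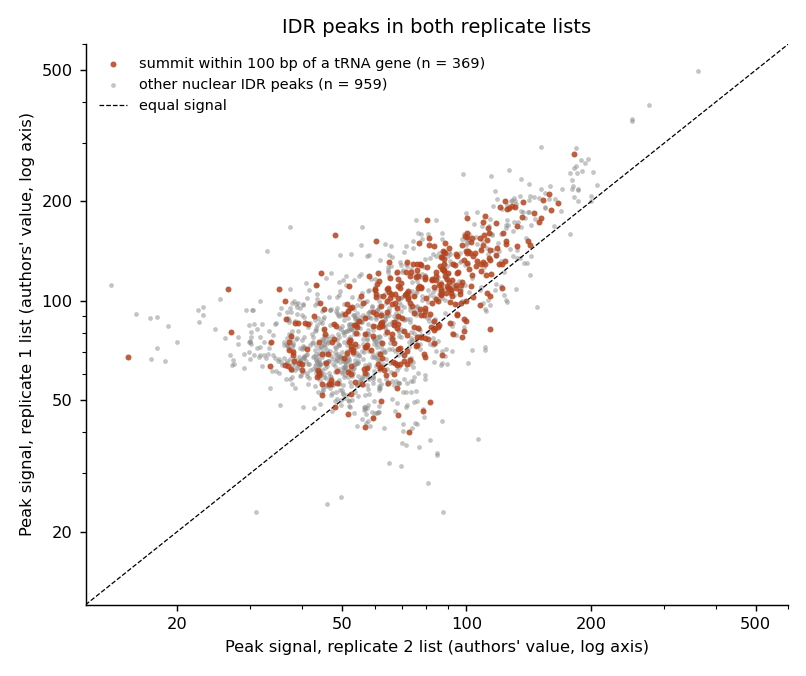
Peak signal in the replicate 1 list (vertical, log axis) against the replicate 2 list (horizontal, log axis) for IDR peaks with a summit in both lists: 369 at tRNA genes in red and 959 other nuclear peaks in grey, with a dashed line of equal signal. The Spearman rho is 0.714 for the tRNA gene peaks and 0.474 for the others, and the strongest grey peaks lie above every red one.

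The 10 strongest sites were spread over 4 autosomes and the X chromosome and, by the nearest gene, over 7 amino acids. At 3 of them a gene of another amino acid also lay within 100 bp of the summit: T23F1.t1 and W09G10.t2 for lysine and M02F4.t2 for glutamate. The highest, with a pooled signal of 460.5 (278.3 in replicate 1, 182.4 in replicate 2), ranked 6 among nuclear peaks. Its summit at chrV:15465194 fell in the 66 bp between T23F1.t1, a lysine gene, and T23F1.t2, a proline gene, which point towards each other. Next came F15G9.t1, an alanine gene inside him-4, which encodes the extracellular matrix protein hemicentin, with 372.0 (211.4 and 158.4). W09G10.t3 for threonine had 357.6 (202.5 and 153.5). F38G1.t2 for aspartate, inside the fibroblast growth factor gene egl-17 on the opposite strand, had 351.6 (188.8 and 159.8). In every one of these 4 the replicate 1 value was the higher. C18A11.t2 for arginine had 347.8, F10C1.t1 for glycine 337.1, F52C9.t1 for threonine 334.6, C04A11.t1 for leucine 331.5, Y54G2A.t3 for aspartate 324.5 and M02F4.t1 for glycine 321.5. The summit named for F10C1.t1 lay 94 bp from its body, so its place at that gene rests on the distance allowed. At 7 of the 10 the summit lay outside the nearest gene body, and at F38G1.t2, F52C9.t1 and C04A11.t1 it lay inside, 6, 13 and 18 bp from the 5′ end.

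At the other end, the weakest members and the first genes below the list had nearly the same signal, so the count of 399 depends on where the list ends. The lowest 5 members were C37A5.t1 (101.0), ZC412.t1 (100.3), F38E9.t2, T16D1.t1 (99.6) and Y39B6A.t9 (99.4), in falling order of pooled signal. F38E9.t2 had 41.6 in replicate 1 and 56.9 in replicate 2. The first genes below the list were T05A8.t1 (97.5), F22F1.t9 (97.0), W07G4.t1 (95.5) and K02E11.t1 with C06G4.t1 (95.4 each). The distance limit left few doubtful summits, but it changed the count of genes: 399 had an IDR summit within 100 bp and 423 within 250 bp. The 5 members farthest from a gene body had summits 82, 93, 94, 96 and 96 bp away, and the first IDR summits outside the limit lay 110, 128, 133 and 136 bp away, with signals of 108.8, 100.5, 138.0 and 101.5. Only 6 IDR summits lay between 101 and 250 bp from a tRNA gene.

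Summits were most frequent in the first 20 bp of the gene. Where no other tRNA gene lay within 1000 bp, summits lay a median of 15 bp into the gene from its 5′ end (quartiles 7 and 44, n = 261). It was 15 bp in the replicate 1 list (n = 256) and 13.5 bp in the replicate 2 list (n = 260), and 15 bp for genes on the plus strand and 14 bp for those on the minus strand. Of the 261 summits, 68 fell 10 to 19 bp downstream of the 5′ end and 45 fell 0 to 9 bp downstream, and a smaller group of 21 fell at 60 to 69 bp. The A box core began most often at base 8 of the gene, in 451 of the 513 genes that hold it, and the B box core at base 52, in 257 of 587, counted with introns removed. Summits 13.5 bp from the 5′ end were typical of the 136 narrower peaks, and 19 bp of the 125 peaks of 450 bp. Of all 384 members, 265 (69.0%) had the summit inside a gene body. Summit positions of the same member moved between replicates by a median of 25 bp, and 42.8% moved by at most 20 bp, so differences of a few base pairs between sets are within that movement.

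**Figure D2:**
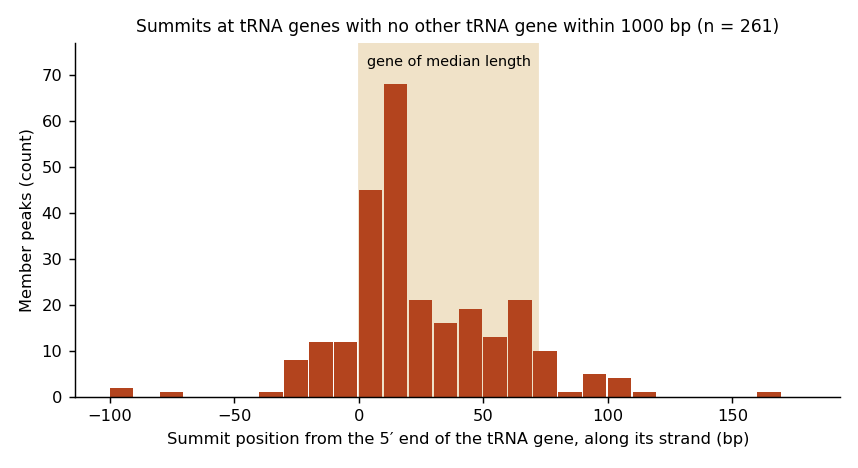
Number of member peaks (vertical) by summit position in bp from the 5′ end of the tRNA gene, along its strand (horizontal, bins of 10 bp), for the 261 members whose gene has no other tRNA gene within 1000 bp; the shaded band spans the median gene length of 72 bp. The tallest bars, 45 and 68 peaks, are the first pair inside the gene, and a lower one of 21 stands near its 3′ end.

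The B box core and the TTTT run were found in most tRNA genes with or without a peak, and the A box core in fewer. The B box core was found in 97.5% of the 399 genes with a member peak and in 93.0% of the 213 without, searching the gene strand with introns removed. The A box core was found in 86.0% and 79.8%, and a run TTTT within 50 bp downstream in 99.7% and 97.2%. In windows of 72 bp at 28559 lower pooled summits, searched the same way on one strand, 1.47% held the B box core and 20.9% the A box core, and TTTT occurred in 41.0% of the windows of 50 bp. Read the other way, 389 of 587 genes with the B box core had a member peak (66.3%), and 10 of the 25 without it did (exact interval 21.1 to 61.3%). Of 7 genes with no TTTT in that window only W09G10.t3, the third strongest site, had a member peak. Pseudogenes held the B box core in 79.0% of cases and the A box core in 90.9%. A match here is a match of letters, not a measured binding site of any factor.

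By amino acid, the share of genes with a member peak ran from 92.6% for aspartate (25 of 27) to 45.0% for histidine (9 of 20), beside 65.2% of all tRNA genes. After aspartate came threonine (28 of 34), lysine (36 of 46), glutamate (32 of 41), cysteine (10 of 13), alanine (26 of 34), leucine (28 of 39) and tryptophan (8 of 12). Below the overall share were asparagine (13 of 20), valine (20 of 31), phenylalanine (9 of 14), tyrosine (12 of 19), methionine (12 of 20), serine (23 of 39), isoleucine (17 of 29), glycine (31 of 55), proline (23 of 42), arginine (24 of 44) and glutamine (13 of 27). Aspartate and threonine were the groups whose exact interval lay above 65.2%, at 75.7 to 99.1% and 65.5 to 93.2%, and the intervals of the other amino acids included it. With 250 bp allowed in place of 100 bp, 69.1% of all tRNA genes had an IDR summit. Threonine kept 28 of 34, and its interval includes that share. Among the groups that rose, asparagine then had 16 of 20, glutamine 18 of 27, glycine 38 of 55 and cysteine 12 of 13. The genes of a group are often copies of one another, so the intervals are too narrow for independent genes. Aspartate held 25 of 27 genes when replicate 1 alone was ranked and 24 of 27 with replicate 2 alone, and both aspartate genes without a member peak had a pooled summit. The number of genes among the strongest peaks differed by 3 or 4 between the replicates for 5 amino acids. It was higher in replicate 1 for isoleucine (18 and 14 in replicates 1 and 2) and tyrosine (13 and 9), and higher in replicate 2 for alanine (25 and 28), asparagine (10 and 13) and glutamate (28 and 32). The single selenocysteine gene, K11H12.t1, had a pooled signal of 72.1 and no member peak, and the 5 tRNA genes without an amino acid in RefSeq had none either (exact interval 0 to 52.2%).

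**Figure D3:**
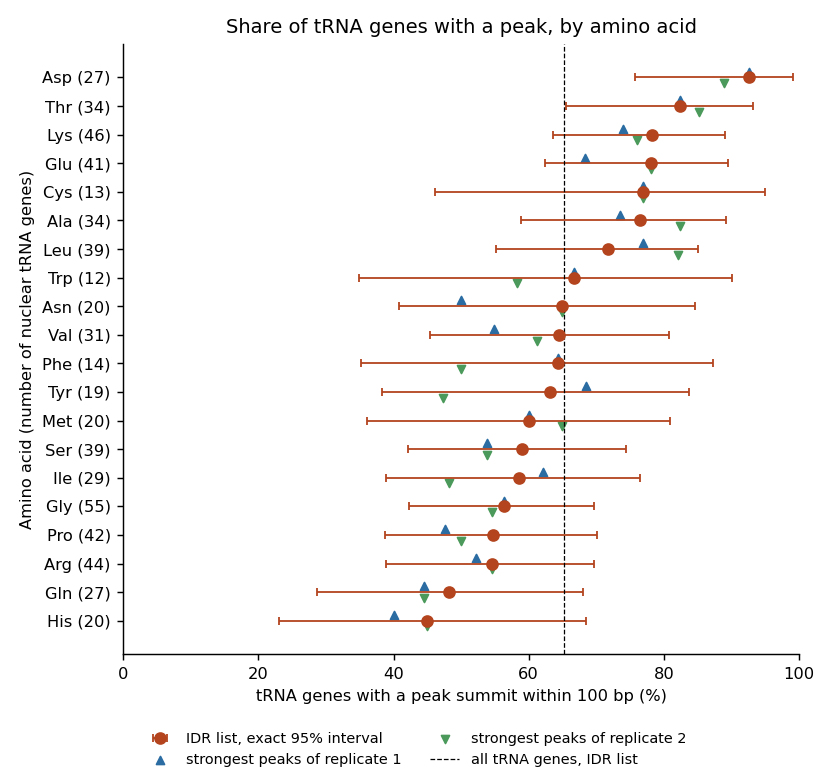
Share of nuclear tRNA genes with a peak summit within 100 bp (horizontal, %), by amino acid with the number of genes (vertical); red points are the IDR list with exact 95% intervals, triangles the strongest 1422 nuclear peaks of replicate 1 (up) and replicate 2 (down), and the dashed line marks 65.2%. Aspartate and threonine stand above the line with their intervals, and the intervals of the other groups cross it.

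How strong the peaks were followed a different order from how many genes had one. Median member signal was highest for alanine (198.0), isoleucine (197.3) and lysine (191.4) and lowest for phenylalanine (123.8), asparagine (146.1) and histidine (149.1), each over peaks that had passed the IDR threshold. Among the 20 amino acids with a member peak, selenocysteine left out, the best gene had a signal from 232.1, at H08J11.t3 for glutamine, up to the 460.5 shared by proline and lysine. Others not named so far were F41D9.t3 for asparagine (321.4), K04A8.t3 for cysteine (257.8), C02F12.t1 for methionine (280.8), T28B4.t1 for phenylalanine (251.0), B0523.t1 for tryptophan (275.6) and R04D3.t2 for valine (286.8). The nearest-gene rule gave W03G11.t1 for lysine (312.0) and F02D10.t1 for glutamate (289.6), both below the signal of a shared summit that had another gene closer to it.

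The anticodon, the letters that pair with the codon, could be read from the sequence in 595 genes, and 43 of its 48 groups had at least 1 member peak. Differences between anticodons of an amino acid were not tested. For glutamate, 16 of 17 UUC genes and 16 of 24 CUC genes had a member peak. The replicates differed here: 15 UUC and 13 CUC genes were among the strongest peaks of replicate 1, and 13 and 19 among those of replicate 2. For isoleucine, 15 of 21 AAU genes and 2 of 7 UAU genes had a member peak. For proline all 4 CGG genes, 3 of 6 AGG genes and 16 of 31 UGG genes did. For lysine, 12 of 15 UUU genes and 24 of 30 CUU genes did. The 5 groups without a member were small: Arg-CCG with 2 genes, Arg-GCG and Gly-ACC with 1 each, Gly-CCC with 3 and the selenocysteine gene. Of these 8 genes only the selenocysteine gene had a pooled summit, and Y46G5A.t1 and ZK380.t1 (both Arg-CCG) had one in the replicate 2 list alone, at 10.9 and 10.3. The 3 Gly-CCC genes are copies of one sequence on one stretch of a single chromosome.

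Genes with an intron, which is cut out of the precursor by the tRNA splicing endonuclease, had a member peak in 21 of 29 cases (72.4%, exact interval 52.8 to 87.3%), against 378 of 583 without an intron (64.8%). The difference of 7.58 percentage points has a counting interval of -10.9 to 21.1 and changed sign between the replicates: 23 intron genes were among the strongest peaks of replicate 1 and 18 among those of replicate 2. The intron genes fall into 3 anticodon groups, and differences between these were not tested. All 7 Leu-CAA genes, with introns of 35 to 38 bp, had a member peak, from 120.3 at F02D10.t3 to 331.5 at C04A11.t1, and all 7 were among the strongest peaks of both replicates. Of 19 Tyr-GUA genes, with introns of 11 bp, 12 had one, from 107.9 to 311.9 at C02B4.t2, and 13 and 9 were among the strongest of replicate 1 and replicate 2. The lower replicate 2 values show at C16D9.t4, with 80.2 in replicate 1 and 27.0 in replicate 2, and at C47E8.t1, with 87.8 and 36.5. Of 3 Ile-UAU genes with an intron of 10 or 11 bp, F57F5.t1 (321.0; 191.6 in replicate 1 and 126.5 in replicate 2) and C02B4.t1 (197.4; 105.8 and 91.7) had a member peak, and K11C4.t1 had a pooled signal of 86.8. A further 4 Ile-UAU genes are annotated without an intron and are copies of one sequence. None of the 4 had a member peak, and T22C1.t1, with a pooled signal of 18.0, was the only one with a pooled summit.

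Genes that lie close together had a summit within 100 bp less often, and the shares were close with a wider limit. With a cluster defined by gaps of at most 1000 bp, 138 of 236 clustered genes (58.5%) and 261 of 376 single genes (69.4%) had a member peak, a difference of -10.9 percentage points (counting interval -18.7 to -3.16). In clusters of 2 genes the share was 64.7%, and in clusters of 3 it was 21 of 42 genes. It was 56.3% in clusters of 4 and 31.8% in the 22 genes of clusters of 5 or more. In the strongest peaks of replicate 1 the shares were 53.0% of clustered and 68.4% of single genes, and in those of replicate 2 57.6% and 67.3%. With 250 bp allowed in place of 100 bp, 68.6% of clustered and 69.4% of single genes had an IDR summit, -0.77 percentage points apart. In no list did 2 different summits lie closer than 199 bp, and the part of this spacing in the shares was not tested. Ordered by the gap to the next tRNA gene, the share was 87.5% up to 100 bp (14 of 16 genes), 52.7% at 101 to 200 bp, 41.0% at 201 to 500 bp (25 of 61), 75.8% at 501 to 1000 bp and 69.4% beyond. The wider limit raised the share at gaps of 101 to 200 bp to 73.1% and that at 201 to 500 bp to 47.5%.

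**Figure D4:**
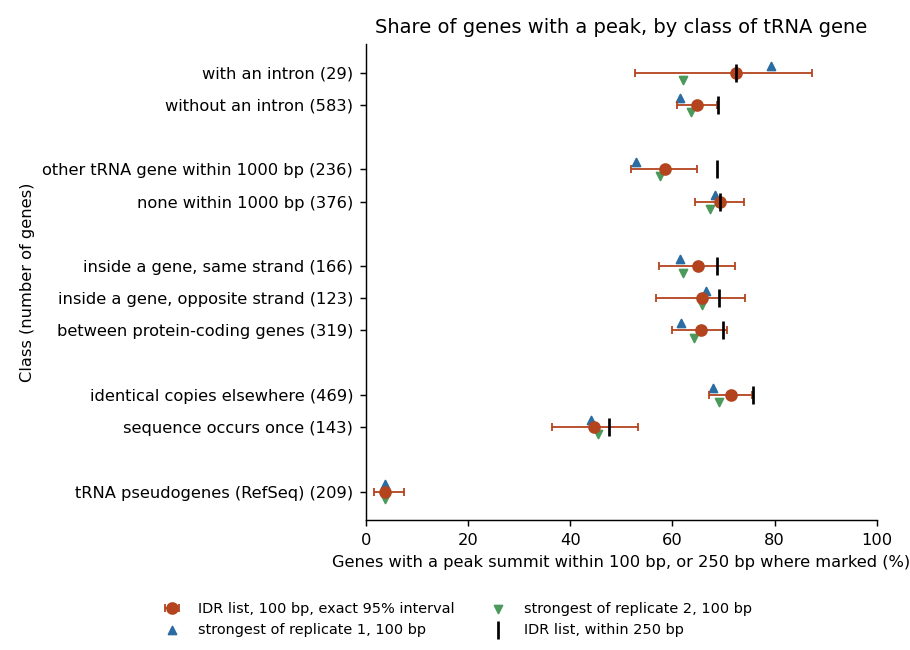
Share of genes with a peak summit within 100 bp (horizontal, %) for classes of tRNA genes and for tRNA pseudogenes, with the number of genes in brackets; red points are the IDR list with exact 95% intervals, triangles the strongest 1422 nuclear peaks of replicate 1 (up) and replicate 2 (down), and black bars the IDR list with a limit of 250 bp. Clustered genes reach the share of single genes at 250 bp, genes with identical copies stand above genes whose sequence occurs once at either limit, and pseudogenes stand at 3.83%.

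Pairs were counted by their gap. Of 78 clusters of exactly 2 genes, both genes had a member peak in 36, 1 gene in 29 and neither in 13. Where the gap was at most 150 bp, 16 of 25 pairs had both genes served, 15 of them by a single summit. Where it exceeded 500 bp, 15 of 25 had both, each by a summit of its own, and at 151 to 500 bp only 5 of 28 had both. In 23 pairs that diverge with a gap of at most 200 bp, 16 of 25 summits lay between the genes. Among members in clusters 34.1% of summits lay upstream of the nearest gene, against 13.8% of those at single genes.

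In the 4 clusters of 5 or 6 genes, 7 of 22 genes had a member peak. On the X chromosome, 6 identical histidine genes, F28H6.t2 to F28H6.t7, alternate in strand between bases 14135045 and 14137010. None had a member peak: F28H6.t2 had a pooled signal of 87.9, F28H6.t5 one of 57.0, and the 4 genes between these had no pooled summit. The other 5 copies of this sequence, elsewhere, all had a member peak, from 134.6 at W09G10.t1 to 260.2 at Y65A5A.t4. In a second cluster of 6, F22F1.t2 (serine, 153.5), F22F1.t3 (aspartate, 116.0) and F22F1.t5 (aspartate, 102.1) had a member peak, and F22F1.t4, F22F1.t6 and F22F1.t7 did not. In a cluster of 5 inside K01A12.3 only K01A12.t4 for cysteine had a member peak (166.0), and K01A12.t2, with the same sequence, had a pooled signal of 75.8. In the other cluster of 5, the glutamine genes H08J11.t1 to H08J11.t5 inside ajm-1, 3 had one: H08J11.t3 with 232.1, and H08J11.t1 and H08J11.t5, which share a summit of 108.1.

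The share of tRNA genes with a peak was nearly the same inside and outside protein-coding genes. A member peak was found at 190 of 290 tRNA genes inside a protein-coding gene (65.5%) and at 209 of 319 between such genes (65.5%), and at none of 3 that overlap the edge of one. On the strand of the host it was found at 108 of 166 (65.1%), and on the opposite strand at 81 of 123 (65.9%), a difference of -0.79 percentage points (counting interval -11.6 to 10.3). Nearly all of these genes, 283, lay in an intron of the host, and 5 of the 7 that touch a host exon had a member peak. The medians of the signal were not the same, a difference that was not tested. Members on the strand of the host had a median of 155.4 (88.6 in replicate 1, 66.7 in replicate 2), against 184.2 on the opposite strand (102.3 and 76.2) and 181.2 between genes (104.3 and 82.5). The order of the medians on the same and on the opposite strand was the same among genes with several copies (163.2 and 184.2) and among genes whose sequence occurs once (146.5 and 178.9). Genes within the window from 1000 bp upstream to 500 bp downstream of a protein-coding start had a member peak in 119 of 171 cases (69.6%), and those outside it in 280 of 441 (63.5%).

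The 290 tRNA genes lie in 226 host genes, of which 163 had at least 1 tRNA gene with a member peak. In srv-16, tbc-12, pxn-1 and spe-9 all 3 tRNA genes had one, with highest signals of 230.0, 184.2, 182.6 and 129.7. The gene ajm-1, for a protein of the apical junction, holds 5, of which 3 had one. Its H08J11.t3 and H08J11.t4 have the same sequence and point the same way. H08J11.t3 had a signal of 232.1 (123.3 in replicate 1, 108.2 in replicate 2), and H08J11.t4 had no summit in any list. In him-4, F15G9.t1 and F15G9.t2 share the summit of 372.0.

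Genes with exact copies had a member peak more often than genes whose sequence occurs once: 335 of 469 (71.4%) against 64 of 143 (44.8%), a difference of 26.7 percentage points (counting interval 17.5 to 35.5). Ranking replicate 1 alone gave a difference of 24.0, and ranking replicate 2 alone gave 23.6. It was already known for these data. What follows divides it further, by divisions chosen after the values were seen. The share was 68.1% for sequences present 2 or 3 times, 67.6% at 4 to 9 copies and 73.2% at 10 or more. Genes that occur once were divided by how many letters the gene, with its intron removed, differs from the nearest repeated tRNA. Up to 2 differences, 42 of 76 (55.3%) had a member peak, and above 10 differences 9 of 30 (30.0%). A repeat was counted with its intron, so genes alike apart from the intron count as occurring once. Signals of these 9 (lowest 120.3, median 197.4, highest 331.5) match those of the 7 Leu-CAA and 2 Ile-UAU intron genes with a member peak. Without introns the 7 Leu-CAA genes have 2 sequences, so this division does not order genes by divergence alone. Single-occurrence genes with an intron, whose sequence often differs in the intron only, had a member peak in 15 of 19 cases (78.9%), and those without an intron in 49 of 124 (39.5%). Where single-occurrence genes did have a member peak, its signal was like that of the rest, with a median of 169.0 against 173.0. The sources used here do not say how reads with several matching places were treated, and its part in the share by copies was not tested. With 100 bp added on each side, the sequence of 610 of the 612 genes occurs once in the genome, and 65.4% of these had a member peak.

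Exact copies of one gene differed in whether they had a member peak and in their pooled signal. In the 20 families with at least 10 identical copies, 232 of 317 genes (73.2%) had a member peak. Only the Glu-UUC family was complete, with 15 of 15 genes and signals from 111.1 at C44B7.t1 to 255.0 at C28G1.t1. All 15 were among the strongest peaks of replicate 1, but 12 among those of replicate 2. The Asp-GUC family had 20 of 21, and the remaining copy, F22F1.t9, had a pooled signal of 97.0, just below the list. At the low end, Ser-AGA and His-GUG had 5 of 11 each. Among copies with a pooled summit, the highest signal in a family was 2.30 to 17.5 times the lowest, with a median of 4.01 over the 20 families. In most families that lowest signal was a pooled summit below the IDR list, which is not taken as binding. It was 16.9 in Phe-GAA and 18.1 in Ile-AAU, near the lowest signal of the pooled list, 15.05. A highest signal can also be a shared summit, as the 460.5 of both Lys-UUU and Pro-UGG. In the Lys-UUU family of 14, signals ran from 460.5 at T23F1.t1 (278.3 in replicate 1, 182.4 in replicate 2) through 182.6 at ZK994.t2 (101.7 and 79.6) to 82.0 at Y70C5A.t1 (47.8 and 33.2). Both replicates put the first of these named copies highest and the last lowest. The copies were chosen by the pooled signal, which holds both replicates, so this order is no separate support. Another copy, W07G4.t1 (pooled signal 95.5), had 72.6 in replicate 1 and no summit in the replicate 2 list. The Gly-UCC family of 29 is the largest: 20 had a member peak, from 115.2 to 321.5 at M02F4.t1, 2 had weaker pooled summits and 7 had none. Of these 7, C12C8.t5 and C12C8.t6 lay 141 bp, R04E5.t2 189 bp and ZK154.t4 195 bp from the next tRNA gene. The gap was 406 bp at R04E5.t4, 2304 bp at Y51H4A.t3 and 11069 bp at Y51H4A.t5. With 250 bp allowed, 28 of all 36 Gly-UCC genes had an IDR summit, against 21 within 100 bp. The part of neighbouring genes in this was not tested.

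**Figure D5:**
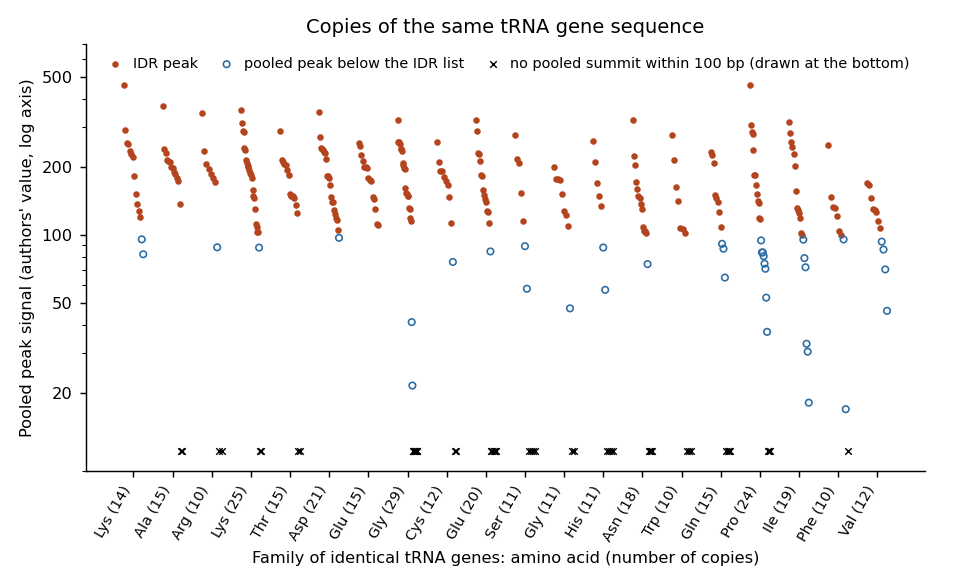
Pooled peak signal (vertical, log axis) of each copy in the 20 families of at least 10 identical tRNA genes (horizontal, amino acid with number of copies, ordered by median signal); filled points have an IDR peak, open points a pooled peak below the list, and crosses no pooled summit within 100 bp. Identical genes spread from 460.5 downwards, and 1 Glu family of 15 and the Lys family of 14, the Asp family of 21, the Ile family of 19 and the Val family of 12 have no cross.

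Identical copies share the gene body, and their surroundings were compared next. Copies with a member peak lay farther from the next tRNA gene, at a median of 3964 bp (n = 232), than copies without, at 406 bp (n = 85), and 39.2% and 64.7% of them had a tRNA gene within 1000 bp. These gaps were compared with the limit of 100 bp only. With 250 bp allowed, 250 of the 317 copies had an IDR summit, against 232. The part of the spacing of summits, at least 199 bp, in the difference was not tested. The 100 bp upstream held a median of 58% A and T with a member peak (quartiles 53 and 63%) and 62% without (56 and 68%). Among copies with no tRNA gene within 1000 bp the medians were 56% (n = 141) and 61% (n = 30), and the quartiles overlap. The 50 bases directly upstream of the 4 pairs printed above, 5′ to 3′ on the strand of the gene, are shown because the gene that follows is the same in each pair.
T23F1.t2, Pro-UGG, peak signal 460.5: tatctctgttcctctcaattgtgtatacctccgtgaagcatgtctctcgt
R11G10.t1, Pro-UGG, no summit in any list: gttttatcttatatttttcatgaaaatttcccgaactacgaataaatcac
C53C7.t1, Ser-AGA, peak signal 277.9: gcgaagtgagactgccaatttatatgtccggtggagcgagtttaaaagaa
F42A10.t1, Ser-AGA, no summit in any list: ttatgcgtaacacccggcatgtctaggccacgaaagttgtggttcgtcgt
Y65A5A.t4, His-GUG, peak signal 260.2: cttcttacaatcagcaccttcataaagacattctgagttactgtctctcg
F28H6.t3, His-GUG, no summit in any list: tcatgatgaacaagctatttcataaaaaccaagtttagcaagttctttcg
H08J11.t3, Gln-UUG, peak signal 232.1: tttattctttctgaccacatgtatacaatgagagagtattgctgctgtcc
H08J11.t4, Gln-UUG, no summit in any list: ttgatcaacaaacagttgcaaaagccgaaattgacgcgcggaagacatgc
The copy with the peak holds less A and T in 2 of the 4 pairs, with 56% at T23F1.t2 and 74% at R11G10.t1, and 60% at Y65A5A.t4 and 68% at F28H6.t3. It holds more in the other 2, with 56% at C53C7.t1 and 48% at F42A10.t1, and 62% at H08J11.t3 and 54% at H08J11.t4. The pairs also differ in the gap to the next tRNA gene. It was 66 bp at T23F1.t2 and 2418 bp at R11G10.t1, and 130 bp at C53C7.t1 and 105 bp at F42A10.t1. At Y65A5A.t4 and F28H6.t3 it was 693 and 178 bp, and at H08J11.t3 and H08J11.t4 175 and 141 bp. No list holds 2 different summits closer than 199 bp, and the part of neighbouring genes in these pairs was not tested.

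The X chromosome holds 276 of the 612 tRNA genes, and 179 of these had a member peak (64.9%), against 220 of 336 on the autosomes (65.5%). The median member signal was 185.9 on X and 164.2 on the autosomes, and the difference was not tested. The medians were 106.6 on X and 96.2 on the autosomes in replicate 1, and 85.6 and 68.0 in replicate 2. Among the other chromosomes the median ran from 145.7 on V to 178.9 on IV.

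The replicates disagreed strongly at few members. Of the 384, 369 had a summit within 100 bp of their own in both replicate lists. By this measure 13 had none in the replicate 1 list, 2 had none in the replicate 2 list and none was missing from both. Counted within 100 bp of the gene, C56G7.t1 and M01E10.t2 did have a replicate 1 summit, of 107.0 and 62.0. R04D3.t2, F22F1.t2, F54F7.t2, Y7A9D.t3, Y57G11B.t1 and T09F5.t1 had none by gene either. The strongest of those missing from replicate 1 was R04D3.t2 for valine, with a pooled signal of 286.8 and 118.3 in replicate 2. Taken peak by peak, with the replicate summit matched to that of the member, the largest ratios of replicate 1 to replicate 2 were 4.45 at Y116F11A.t1 for asparagine (67.6 and 15.2), 4.08 at C16C8.t1 for lysine (108.3 and 26.5) and 3.28 at T26C11.t1 for glutamate (157.8 and 48.1). The smallest were 0.55 at F10C1.t2 for leucine (39.97 and 72.6), 0.59 at F15A8.t2 and 0.60 at C39D10.t2, both for glutamate. At 3 of these 6 genes the strongest summit within 100 bp of the gene gave another ratio. It was 1.89 at Y116F11A.t1 (67.6 and 35.9) and 1.14 at F10C1.t2 (82.6 and 72.6). At C16C8.t1 the ratio 4.08 belongs to a second, weaker summit of 134.1, and the strongest, of 289.2, gave 1.62 (180.1 and 110.9). Of all members, 350 were among the 1422 strongest nuclear peaks of replicate 1, 344 among those of replicate 2 and 314 among both.

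Other genes that RNA polymerase III transcribes were mixed. All 3 single-copy RNA genes searched had an IDR summit within 100 bp: rpr-1, the RNA of RNase P, which trims the 5′ end of tRNA precursors (433.0; 252.3 in replicate 1 and 181.9 in replicate 2), mrpr-1, the RNA of RNase MRP (266.5; 142.5 and 115.9), and yrn-1, a Y RNA (137.4; 60.3 and 76.2). The 16 annotated genes for 5S ribosomal RNA, which have an internal promoter that needs a further factor, TFIIIA, had 0 IDR summits, 1 pooled summit (rrn-4.15, 55.6), 2 in replicate 1 and 1 in replicate 2. Most of these lie in a tandem array of near copies. Among protein-coding genes for subunits of RNA polymerase III, its factors and tRNA processing, 2 of 32 had an IDR summit in the window around a start (6.25%), beside 3.6% of all protein-coding genes. These were rpc-2, for a large subunit of the polymerase (155.8; 77.7 and 77.2), and rpac-19, for a subunit shared with RNA polymerase I (117.8; 34.6 and 84.9). Only rpc-2 was among the strongest peaks of replicate 1, and the nearest tRNA gene lay 204688 bp from its summit and 231586 bp from that of rpac-19.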

How the data were processed

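The deposited files are lists of peaks in narrowPeak form on ce11, whose coordinates are those of WBcel235: a list for each of 2 replicates (30000 and 26622 peaks), a pooled list (30000) and an IDR list (1441). Peak signal was used as the authors deposited it, in the seventh column, to describe and rank peaks within a list. The aligner, peak caller, handling of multi-mapping reads and IDR cut-off were not given in the sources used here. By the text records that accompany the samples, each list derives from the replicate alignments and a further file shared by both, whose role is not stated. Read numbers are unknown, so values have no error beyond the 2 replicates. Lists on ce10 were not used.

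Genes came from Ensembl release 115, and the amino acid of 607 tRNA genes and all pseudogenes from RefSeq (WBcel235). The value of a gene is the strongest summit within 100 bp of its body, and that of a peak in a replicate list is the summit within 100 bp of its own. The anticodon was read as the middle of a loop of 7 bases closed by a stem of 5 pairs with at most 1 mismatch, and kept where it fits the amino acid. Clusters are chains of tRNA genes with gaps of at most 1000 bp, or 5000 bp as an alternative. A host is a protein-coding gene whose span holds the tRNA gene. With 1 group there is no test: counts have exact Clopper-Pearson intervals at 95%, differences of shares have Newcombe intervals, and each share was also taken from the 1422 strongest nuclear peaks of each replicate. Of 40 gene symbols for polymerase III factors and tRNA processing, 32 matched the annotation. Genes for U6 snRNA and SRP RNA were not analysed here. Named genes followed a written rule (the 10 strongest and 5 weakest members, the best gene of each amino acid, intron groups, largest clusters, distance and replicate extremes); copies within families, host genes and pseudogenes were named after their values were seen. The members and lists were chosen with earlier results of these data known. Assignment of summits, positions and anticodons was tested on simulated data. Python 3.11.15, pandas 2.3.3, SciPy 1.17.1, statsmodels 0.14.6 and matplotlib 3.10.9 were used.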

Additional observations from a re-analysis of the deposited data

How the results depend on the processing

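The number of member peaks ran from 265 (summit inside the gene body) to 390 (within 250 bp), with 278 among the 720 strongest IDR peaks, 379 after merging intervals and 367 to 373 from a single replicate. The share of tRNA genes with a peak was 43.3% with the summit inside the body, 69.1% within 250 bp, 48.0% among the 720 strongest IDR peaks and 58.5% over 200 distinct sequences (117 with a peak), and 62.4 to 63.6% from a single replicate. The difference between clustered and single genes was -31.9 percentage points with the summit inside the body and -0.771 within 250 bp, and -15.4 to -9.66 from a single replicate; the cause was not tested. From a single replicate the median summit position was 14 bp, and the differences were -1.57 to 17.7 points by intron, -5.22 to -3.81 by host strand and 23.6 to 24.0 by copies. Of 40 alternatives 34 stayed within 1.5 times the count or within the interval, and the other 6 are those given for the body, 250 bp, the strongest peaks and distinct sequences. For the summit position the interval was the quartiles of the member summits, 5 and 47 bp. Such limits are wide: 265 member peaks beside 384, and the change of sign by intron, fall within them. No paired analysis was possible because there is 1 group. With 2 replicates and no read counts, a gene without a peak was not detectable at this depth and is not shown to lack signal.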
